A study of Mus musculus with 21 samples.

Results

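A set of 10 genes of the podocyte apical surface and foot process cytoskeleton was followed in mouse glomeruli: Synpo, Podxl, Actn4, Ezr, Slc9a3r2, Ptpro, Clic5, Nes, Cdkn1c and Myo1e. They were taken by name, after the identifiers in the deposited tables had been matched to gene symbols, and are 10 of the 35598 genes measured. All 10 had reads in each of the 21 libraries and passed the filter on low counts, which kept 13898 genes. Gene positions are given as in GENCODE M21 on GRCm38. Glomeruli were cut by laser from frozen kidney sections of 3-month-old female mice, 1 library per mouse, and profiled by QuantSeq FWD, which sequences the 3' end of polyadenylated transcripts. Every mouse carried floxed alleles of Epac1, which is encoded by Rapgef3. Mice without Cre are called flox, and littermates with NPHS2Cre, a Cre recombinase driven by a podocyte promoter, are called cKO. In cKO mice the other glomerular cells therefore keep Epac1. Control mice received PBS (3 flox, 3 cKO), and the others received nephrotoxic serum on 2 consecutive days and were sampled on day 4 (3 flox, 4 cKO) or day 11 (4 flox, 4 cKO). The study asks what podocyte Epac1 does as glomerulonephritis progresses.

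Podocytes are the epithelial cells that wrap the glomerular capillaries with interdigitating foot processes. Each foot process holds a core of bundled actin crosslinked by alpha-actinin-4 (Actn4) and bound by synaptopodin (Synpo). Its apical membrane carries the sialomucin podocalyxin (Podxl), which repels neighbouring membranes by its charge and is tied to actin through NHERF2 (Slc9a3r2) and ezrin (Ezr). In glomerular disease foot processes often flatten and fuse, a change called effacement, while their actin is rearranged.

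Promoter sequences from the RefSeq table (build GRCm38.p6) were held for 7 of the 10 genes. The 250 bases before the annotated start are printed for the 2 genes called in opposite directions by DESeq2 at day 11, Actn4 and Ptpro, and for Myo1e, whose window held a CArG box, the element bound by serum response factor. They lie at chr7:28962333-28962582 on the minus strand, chr6:137252049-137252298 on the plus strand and chr9:70207100-70207349 on the plus strand, and are written 5' to 3' along each gene's strand. Capitals mark GC boxes (GGGCGG on either strand) in Actn4 and the CArG box in Myo1e.
Actn4: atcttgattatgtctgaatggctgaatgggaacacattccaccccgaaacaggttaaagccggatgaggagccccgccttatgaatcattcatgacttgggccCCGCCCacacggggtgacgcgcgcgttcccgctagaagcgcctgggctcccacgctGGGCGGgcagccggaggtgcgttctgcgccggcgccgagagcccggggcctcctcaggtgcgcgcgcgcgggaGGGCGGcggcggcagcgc
Ptpro: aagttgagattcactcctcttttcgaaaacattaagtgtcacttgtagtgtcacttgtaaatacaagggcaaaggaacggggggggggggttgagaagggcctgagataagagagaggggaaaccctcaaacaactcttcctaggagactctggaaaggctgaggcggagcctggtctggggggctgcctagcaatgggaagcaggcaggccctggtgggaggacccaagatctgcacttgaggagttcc
Myo1e: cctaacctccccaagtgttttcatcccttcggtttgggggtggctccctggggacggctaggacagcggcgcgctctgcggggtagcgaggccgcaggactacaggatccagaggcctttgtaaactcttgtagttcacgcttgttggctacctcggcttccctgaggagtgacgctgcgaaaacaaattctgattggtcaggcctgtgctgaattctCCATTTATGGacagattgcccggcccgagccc
Both strands were searched for 5 motifs, and the share of 32851 promoter windows of this length that held each is given with it. The GC box was found in 32.7% of windows and the CArG box in 1.47%. The EGR and WT1 site GCGGGGGCG, which can overlap a GC box, was found in 2.57%. The LIM homeodomain core TAATTA was found in 4.84%, and the E-box CAGCTG in 13%. The Actn4 window held 3 GC boxes and the Myo1e window held 1 CArG box, 32 bases before the start. None of these letters occurred in the Ptpro window. GC boxes were also found in the windows of Nes, Ezr and Clic5. Slc9a3r2 has 2 windows in the table: 1 held GC boxes and the GCGGGGGCG site, 38 bases before the start, and the other held none of the 5 motifs. These are matches of letters and were not tested as binding sites.

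Library totals ran from 4550550 to 24295712 reads, between 7871 and 13006 genes had reads, and the ribosomal RNA gene CT010467.1 took 14.9% to 39.5% of a library. The fewest genes were detected in cKO day 4 replicate 3 and the fewest reads were obtained in cKO day 11 replicate 3. Levels are given as CPM, the count of a gene scaled to a common library size. Rapgef3 stood at 270.2 ± 60.5 CPM (SD, n = 3) in flox PBS and 121 ± 50.1 CPM (SD, n = 3) in cKO PBS, and the genotypes did not overlap. On day 4 it stood at 191 ± 58.0 CPM (SD, n = 3) in flox and 120 ± 38.8 CPM (SD, n = 4) in cKO, and on day 11 at 204.5 ± 100.7 and 176.9 ± 28.7 CPM (SD, n = 4 each), with overlap at both stages. Its log2 fold change in cKO against flox was -1.16 ± 0.46 (SE) in PBS, -0.67 ± 0.43 on day 4 and -0.21 ± 0.40 on day 11 (edgeR adjusted p = 0.73, 0.88 and 1.0). Averaged over the stages, its log2 fold change in cKO against flox was -0.68 ± 0.25 (SE; edgeR adjusted p = 0.55). A 3' tag can lie outside the deleted part of a gene, and whether it did here was not tested. Of 20 other podocyte genes, 16 had reads in all 21 libraries and none was without reads. Their summed level was 5539 to 7192 CPM in PBS, 3664 to 5409 CPM on day 4 and 3440 to 6943 CPM on day 11. In whole glomeruli, fewer podocytes and less RNA per podocyte cannot be told apart.

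In nephritis the members lay on both sides of PBS, in shares near those of all genes, and none passed the main test. Actn4 was higher than in PBS at both stages, Synpo was lower at both stages, Ptpro was lower on day 11, and Podxl was highest on day 4 and lower again on day 11. The edgeR quasi-likelihood test with Benjamini-Hochberg adjustment at 0.05 called 0 of 10 members on day 4 against PBS averaged over genotypes (0.0216% of all genes called) and 0 of 10 on day 11 against PBS (0.122% of all genes called). At an unadjusted p under 0.05 there were 2 members on day 4, Actn4 and Synpo (9.27% of all genes), and 3 on day 11, Actn4, Synpo and Ptpro (9.12% of all genes). DESeq2, run on the same counts, called 1 of 10 on day 4 (Actn4; 9.04% of all genes called) and 2 of 10 on day 11 (Actn4 and Ptpro; 8.38% of all genes called), and limma voom called 0 at either stage (0.115% and 0.648% of all genes called). On day 4, 6 of 10 members had a log2 fold change above 0 (50.5% of all genes), with a median of 0.05 against 0.01 over all genes. On day 11, 5 of 10 did (52.9% of all genes), with a median of 0.06 against 0.07.

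**Figure D1:**
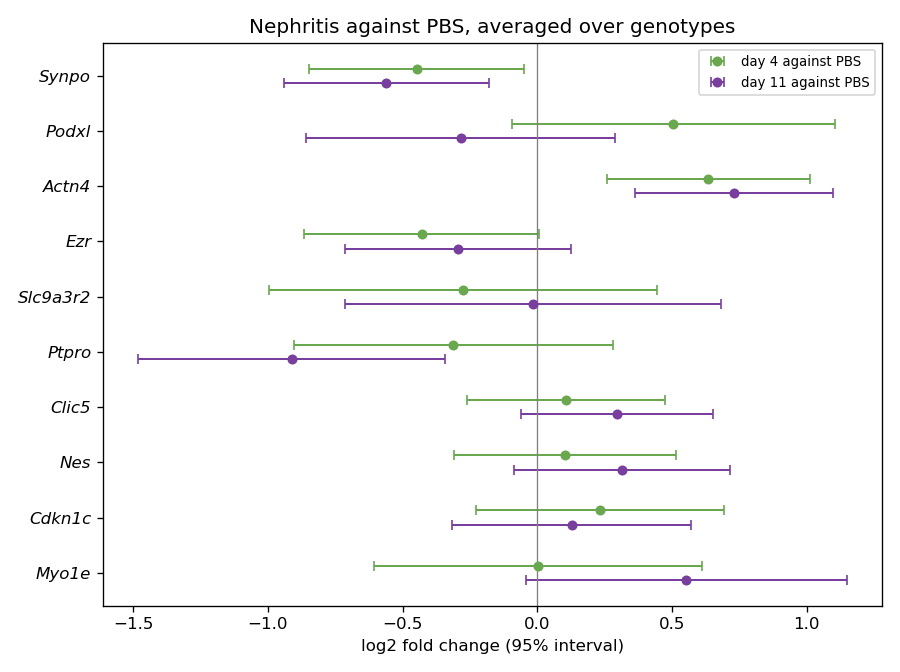
Log2 fold change of each of the 10 genes on day 4 (green) and day 11 (purple) against PBS, averaged over the genotypes, with 95% intervals from the edgeR fit. The intervals lie above 0 at both stages for Actn4 and below 0 at both stages for Synpo, and below 0 on day 11 for Ptpro.

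Actn4 (chr7:28893248-28962340, minus strand) encodes the crosslinker that bundles foot process actin, and dominant mutations in it cause focal segmental glomerulosclerosis. In PBS its level was 620.0, 506 and 784 CPM in the flox libraries and 565, 732 and 770.4 CPM in the cKO libraries. On day 4 it was 1016, 613 and 1171 CPM in flox and 1126, 1388, 1049.8 and 972 CPM in cKO. On day 11 it was 1102, 1209, 865 and 1397 CPM in flox and 1374, 1162, 699 and 989 CPM in cKO. The level was above that of every PBS library in 6 of 7 day 4 libraries and in 7 of 8 day 11 libraries. The exceptions were flox day 4 replicate 2 and cKO day 11 replicate 3. The log2 fold change against PBS was 0.64 ± 0.18 (SE) on day 4 and 0.73 ± 0.18 on day 11, which are 1.55 and 1.66 times the PBS level (edgeR adjusted p = 0.38 and 0.12, unadjusted p = 0.0016 and 3e-04). DESeq2 gave adjusted p = 0.013 on day 4 and 0.0018 on day 11. On day 11 edgeR also called the gene without cKO day 11 replicate 3 (0.81, adjusted p = 0.041). The value was present in both genotypes on day 11, with log2 fold changes of 0.84 ± 0.26 in flox and 0.62 ± 0.25 in cKO, and with the mean log2 level of the 20 other podocyte genes as a covariate it was 0.64.

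Synpo (chr18:60593973-60660142, minus strand) encodes synaptopodin, which binds actin and alpha-actinin and is made in mature, process-bearing podocytes. In PBS its level was 1439, 1343 and 2099 CPM in flox and 2148, 1609.6 and 1782 CPM in cKO. On day 4 it was 1356, 1812 and 934 CPM in flox and 1140.1, 1381, 736 and 1466 CPM in cKO. On day 11 it was 1322, 1257, 1288 and 1035 CPM in flox and 1208, 740.1, 1762 and 805 CPM in cKO. On day 11 the level was below every PBS library in 7 of 8 libraries, all but cKO day 11 replicate 3, and on day 4 it was so in 3 of 7. The log2 fold change against PBS was -0.45 ± 0.20 (SE) on day 4 and -0.56 ± 0.19 on day 11, or 0.733 and 0.678 times the PBS level (edgeR adjusted p = 0.47 and 0.34). It was -0.65 ± 0.27 on day 4 and -0.71 ± 0.27 on day 11 in cKO, and -0.25 ± 0.29 and -0.41 ± 0.27 in flox. The flox values were -0.04 and -0.18 without flox PBS replicate 3, and the day 4 value was -0.06 without flox day 4 replicate 3 and -0.51 without flox day 4 replicate 2. The difference between the genotypes did not pass its own test at either stage (interaction -0.39 ± 0.39 and -0.30 ± 0.38, edgeR adjusted p = 1.0 at both). With the mean log2 level of the other podocyte genes as a covariate the Synpo value was -0.07 on day 4 and -0.16 on day 11. The library with the highest Synpo level on day 11, cKO replicate 3, also had a high sum of those genes, 6493 CPM. The highest sum on day 11, 6943 CPM, was in flox replicate 1, whose Synpo level was 1322 CPM.

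Myo1e (chr9:70207350-70399766, plus strand) encodes a class I myosin that links actin to membranes at the slit diaphragm and is mutated in recessive childhood nephrotic disease. Its level was 118 to 349 CPM in PBS (median 184), 122 to 289 CPM on day 4 (median 203) and 188 to 516 CPM on day 11 (median 244). The day 11 values overlapped those of PBS in 6 of 8 libraries, and only flox replicate 3 (487 CPM) and cKO replicate 3 (516 CPM) were above every PBS library. The log2 fold change against PBS was 0.00 ± 0.30 (SE) on day 4 and 0.55 ± 0.29 on day 11 (edgeR adjusted p = 0.9999 and 0.6).

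**Figure D2:**
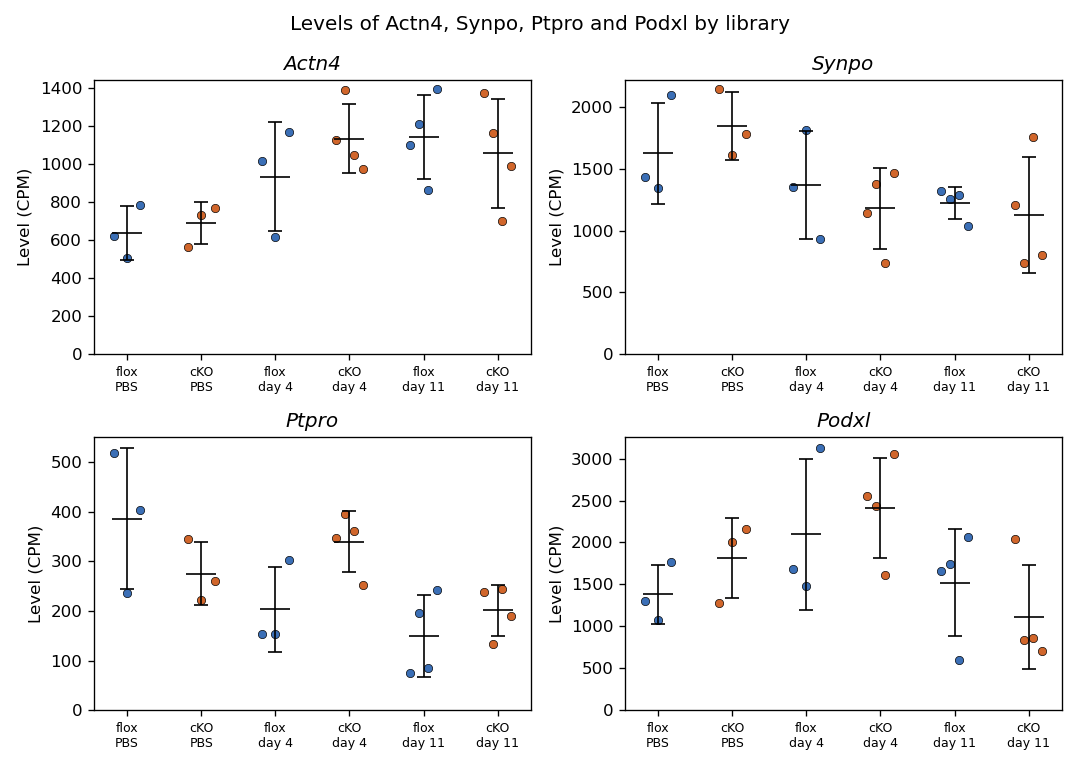
Level in CPM (linear axes from 0) of Actn4, Synpo, Ptpro and Podxl in each library, with blue points for flox and orange points for cKO, and the mean and SD of each group as bars. Day 4 and day 11 points lie mostly above the PBS points for Actn4, and 7 of 8 day 11 points lie below them for Synpo.

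Podxl (chr6:31519488-31563981, minus strand) encodes podocalyxin, the chief sialoglycoprotein of the apical membrane. In PBS its level was 1302, 1075 and 1765 CPM in flox and 1279, 2001 and 2167 CPM in cKO. On day 4 it was 1680.2, 1477 and 3131 CPM in flox and 2550.0, 2431, 1607 and 3049 CPM in cKO. On day 11 it was 1666, 1740.1, 599 and 2068 CPM in flox and 2039.8, 841, 866 and 704 CPM in cKO. On day 4, 4 of 7 libraries were above every PBS library, and on day 11, 4 of 8, 3 of them cKO, were below every PBS and every day 4 library. The log2 fold change from day 4 to day 11 was -0.79 ± 0.27 (SE), or 0.578 times the day 4 level (edgeR adjusted p = 0.38, unadjusted p = 0.0075; DESeq2 adjusted p = 0.028). Against PBS, averaged over genotypes, it was 0.51 ± 0.29 on day 4 and -0.28 ± 0.28 on day 11 (edgeR adjusted p = 0.66 and 1.0). The day 4 value was 0.29 without flox day 4 replicate 3. Leaving out cKO day 11 replicate 1 gave -0.52 on day 11, leaving out flox PBS replicate 3 gave -0.17, and leaving out flox day 11 replicate 3 gave -0.15. The other podocyte genes as a covariate brought the day 11 value to -0.01 and the day 4 value to 0.76. Within genotypes the day 11 value against PBS was 0.14 ± 0.39 (SE) in flox and -0.71 ± 0.39 in cKO. This difference between the genotypes did not pass its own test (interaction -0.84 ± 0.55, edgeR adjusted p = 0.95).

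Between day 4 and day 11 edgeR called 0 of 10 members (0.0% of all genes called), 2 had an unadjusted p under 0.05, Podxl and Ptpro (8.57% of all genes), and DESeq2 called 1 of 10, Podxl (6.99% of all genes called). Log2 fold changes were above 0 for 6 of 10 members (52.9% of all genes), with a median of 0.11 against 0.07 over all genes. All 19 proximal tubule markers were lower on day 11 than on day 4, with a median of -0.87 and 0 called. Their summed level was 5959 to 13917 CPM on day 4 and 2441 to 9191 CPM on day 11. The smallest p among them belonged to Kap, kidney androgen-regulated protein, at -3.24 ± 0.85 (SE; edgeR adjusted p = 0.38). All 10 distal nephron markers were also lower on day 11 than on day 4, with 5 at an unadjusted p under 0.05 and 0 called. Their summed level was 1626 to 4345 CPM on day 4 and 579 to 2373 CPM on day 11, and Umod, uromodulin, had the smallest p (-1.27 ± 0.30, edgeR adjusted p = 0.36). Against PBS, where the proximal tubule sum was 6896 to 10362 CPM and the distal sum 1751 to 2935 CPM, edgeR called 0 genes of either list at either stage. The smallest p on day 4 belonged to Slc22a8 and Umod (0.77 ± 0.39 and 0.62 ± 0.32, adjusted p = 0.55 and 0.58), and on day 11 to Kap and Slc12a1 (-2.59 ± 0.84 and -1.87 ± 0.47, adjusted p = 0.34 and 0.19). With the mean log2 level of the proximal tubule markers as a covariate, the change from day 4 to day 11 was -0.76 for Podxl and -0.83 for Ptpro.

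Slc9a3r2 (chr17:24639286-24650327, minus strand) encodes NHERF2, the scaffold that joins podocalyxin to ezrin, and Ezr (chr17:6738041-6782784, minus strand) encodes ezrin, which joins membrane proteins to actin. Slc9a3r2 ran from 329 to 872 CPM in PBS (median 624), from 69.7 to 754 CPM on day 4 (median 541) and from 320.0 to 915 CPM on day 11 (median 589). The value of 69.7 CPM came from cKO day 4 replicate 3, and the other 20 libraries lay between 320.0 and 915 CPM. Its log2 fold change against PBS was -0.28 ± 0.35 (SE) on day 4 and -0.02 ± 0.34 on day 11, with intervals of -1.0 to 0.44 and -0.71 to 0.68. The day 4 value was -0.10 without cKO day 4 replicate 3 and -0.45 without cKO day 4 replicate 4. Ezr ran from 434 to 734 CPM in PBS (median 629.7), from 311 to 652 CPM on day 4 (median 434) and from 295 to 827 CPM on day 11 (median 467). Its level was below every PBS library in 3 of 7 day 4 libraries and in 2 of 8 day 11 libraries. For Ezr the log2 fold change against PBS was -0.43 ± 0.21 on day 4 and -0.30 ± 0.21 on day 11 (edgeR adjusted p = 0.54 and 0.83). These values were on the side opposite to Podxl on day 4.

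Clic5 (chr17:44188584-44280172, plus strand) encodes a chloride intracellular channel protein that associates with ezrin at the foot process membrane. In PBS its level was 608, 552 and 568 CPM in flox and 590.0, 582 and 628 CPM in cKO. On day 4 it was 552, 581 and 586 CPM in flox and 737, 917, 591 and 546 CPM in cKO. On day 11 it was 1115, 672, 982 and 647 CPM in flox and 813, 576, 548 and 500.4 CPM in cKO. All 4 flox libraries on day 11 were above every PBS library, against 1 of 4 cKO libraries. On day 11 the log2 fold change against PBS was 0.57 ± 0.25 (SE) in flox and 0.02 ± 0.25 in cKO. The difference between them, an interaction of -0.55 ± 0.35, did not pass the test (edgeR adjusted p = 0.91). Averaged over genotypes the log2 fold change was 0.11 ± 0.18 on day 4 and 0.30 ± 0.17 on day 11.

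Ptpro (chr6:137252319-137463233, plus strand) encodes GLEPP1, a receptor tyrosine phosphatase of the apical podocyte membrane that bears on foot process shape. In PBS its level was 519, 236 and 403 CPM in flox and 345, 221 and 259.5 CPM in cKO. On day 4 it was 154, 154 and 302 CPM in flox and 346, 396, 362 and 252 CPM in cKO. On day 11 it was 74.8, 195, 85 and 242 CPM in flox and 239, 134, 244 and 189 CPM in cKO. On day 11, 5 of 8 libraries were below every PBS library, and the 2 lowest were flox replicates 1 and 3. On day 11 the log2 fold change against PBS was -0.91 ± 0.28 (SE), or 0.532 times the PBS level (edgeR adjusted p = 0.33, unadjusted p = 0.0027; DESeq2 adjusted p = 0.038). It was -1.0 with the other podocyte genes as a covariate and -1.01 with the proximal tubule markers as a covariate. On day 4 the average was -0.31 ± 0.29, made of -0.92 ± 0.43 in flox and 0.30 ± 0.40 in cKO. This difference between the genotypes, 1.23 ± 0.59 as an interaction, had an unadjusted p of 0.045 and an edgeR adjusted p of 0.64. On day 11 the interaction was 0.92 ± 0.56 (edgeR adjusted p = 0.86). Leaving out flox PBS replicate 1 gave a day 4 average of -0.18, and leaving out flox day 4 replicate 3 gave -0.52.

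Nes and Cdkn1c mark the mature podocyte rather than its membrane. Nes (chr3:87971078-87980451, plus strand) encodes nestin, an intermediate filament protein that podocytes keep after differentiation, and Cdkn1c (chr7:143458339-143461050, minus strand) encodes a cyclin-dependent kinase inhibitor made by podocytes that have left the cell cycle. Nes ran from 494 to 1055 CPM in PBS (median 646), from 380.2 to 1083 CPM on day 4 (median 741) and from 699 to 1029 CPM on day 11 (median 852). Its log2 fold change against PBS was 0.10 ± 0.20 (SE) on day 4 and 0.32 ± 0.20 on day 11 (edgeR adjusted p = 1.0 and 0.75), and no day 11 library lay outside the PBS range. Cdkn1c ran from 563 to 1218 CPM in PBS (median 826), from 770.3 to 1444 CPM on day 4 (median 945) and from 562 to 1681 CPM on day 11 (median 886). Its log2 fold change was 0.23 ± 0.23 on day 4 and 0.13 ± 0.22 on day 11, with intervals of -0.23 to 0.69 and -0.32 to 0.57. The stages overlapped widely for both genes.

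**Figure D3:**
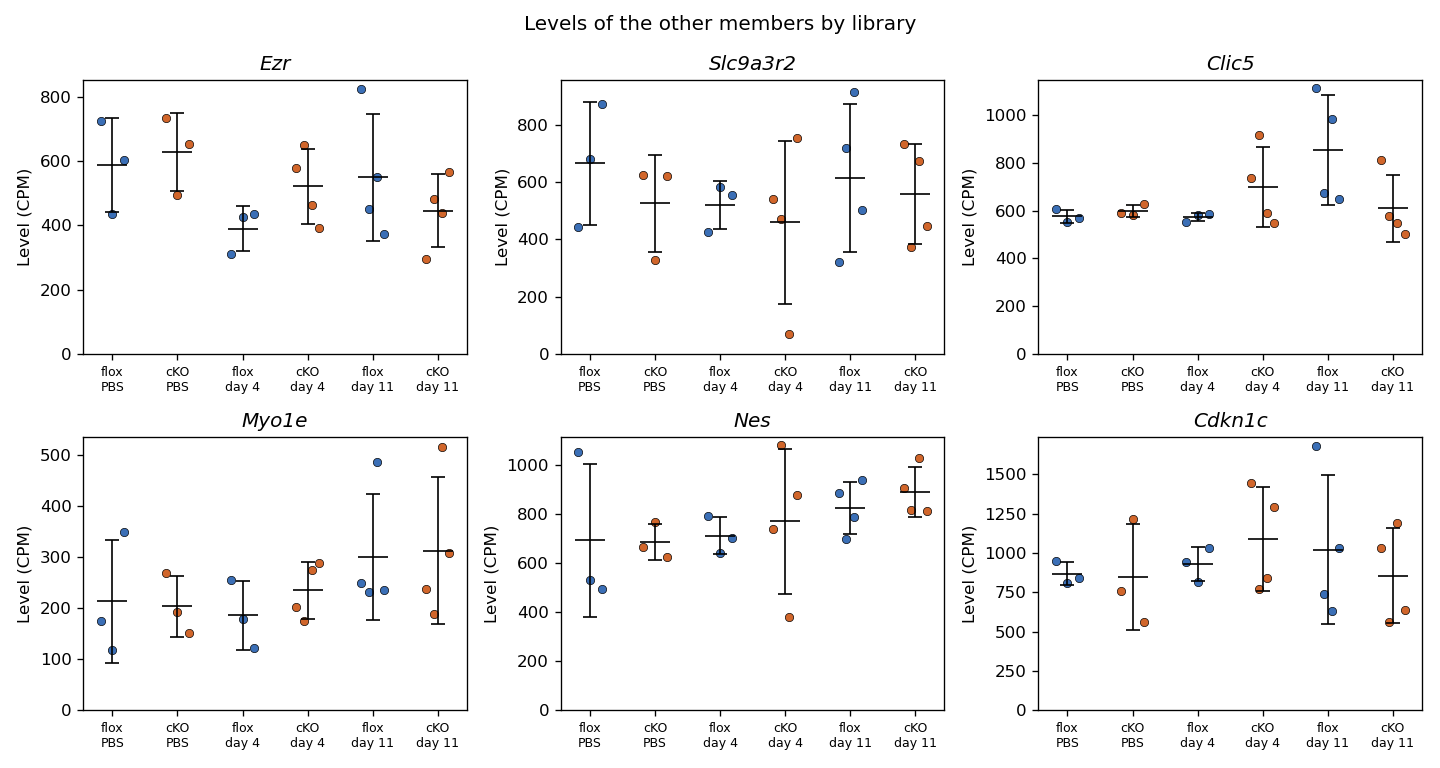
Level in CPM (linear axes from 0) of Ezr, Slc9a3r2, Clic5, Myo1e, Nes and Cdkn1c in each library, with blue points for flox and orange points for cKO, and the mean and SD of each group as bars. PBS overlaps the later stages for each gene, Clic5 varies least in PBS, and Slc9a3r2 has 1 low point at 69.7 CPM in cKO day 4.

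Within genotypes edgeR again called 0 of 10 members in each comparison with PBS. In flox, 2 members had an unadjusted p under 0.05 on day 4, Actn4 and Ptpro (7.93% of all genes, 0.0% called), and 3 on day 11, Actn4, Ptpro and Clic5 (8.25% of all genes, 0.0% called). In cKO, 2 did on day 4 and 2 on day 11, Actn4 and Synpo each time (8.16% and 6.02% of all genes, 0.0% and 0.0504% called). DESeq2 called Actn4 and Ptpro in flox on day 11 (adjusted p = 0.03 and 0.015; 8.17% of all genes called) and Actn4 in cKO on day 4 (adjusted p = 0.047; 5.71% of all genes called). It called 0 of 10 in flox on day 4 (8.1% of all genes called) and in cKO on day 11 (4.6% of all genes called). Comparisons with PBS share their PBS libraries, both within a genotype and averaged over genotypes, so the values of day 4 and day 11 are not independent.

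No member passed the test between genotypes. Averaged over the stages, log2 fold changes of cKO against flox ran from -0.22 (Slc9a3r2) to 0.23 (Ptpro), all with an edgeR adjusted p of 0.9999. Of the 10, 6 were above 0 (50.7% of all genes), with a median of 0.06 against 0.01 over all genes. The 95% interval was -0.20 to 0.39 for Actn4, -0.36 to 0.26 for Synpo, -0.34 to 0.24 for Clic5, -0.42 to 0.52 for Podxl and -0.24 to 0.70 for Ptpro. The test called 0 of 10 members (0.0072% of all genes called), 0 had an unadjusted p under 0.05 (6.62% of all genes), and DESeq2 called 0 (6.5% of all genes called).

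Stage by stage, edgeR called 0 of 10 members between genotypes in PBS, on day 4 and on day 11 (0.0% of all genes each time), and DESeq2 called 0 each time (6.73%, 5.76% and 3.56% of all genes). An unadjusted p under 0.05 was seen for 0 members in PBS (6.02% of all genes), 0 on day 4 (7.42%) and 1 on day 11 (5.86%). That member was Clic5 on day 11, at 854 ± 231 CPM (SD, n = 4) in flox and 609 ± 139 CPM (SD, n = 4) in cKO, with a log2 fold change of -0.49 ± 0.23 (SE; edgeR adjusted p = 0.84). With limma voom and quality weights it was -0.13. Ptpro on day 4 stood at 203.5 ± 85.5 CPM (SD, n = 3) in flox and 339 ± 61.4 CPM (SD, n = 4) in cKO, with a log2 fold change of 0.74 ± 0.40 (edgeR adjusted p = 0.73; 1.15 without flox day 4 replicate 3), and its flox and cKO libraries overlapped. Podxl on day 11 stood at 1518 ± 637 CPM (SD, n = 4) in flox and 1113 ± 622 CPM (SD, n = 4) in cKO, with a log2 fold change of -0.45 ± 0.36 (edgeR adjusted p = 1.0). In the interactions of genotype and nephritis edgeR called 0 of 10 members at either stage (0.0% of all genes). One member, Ptpro, had an unadjusted p under 0.05 on day 4 (7.74% of all genes) and 0 did on day 11 (6.94%), and DESeq2 called 0 at both (8.01% and 6.84% of all genes). The interaction for Podxl on day 11 was -0.84 ± 0.55, and -1.33 without cKO day 11 replicate 1.

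**Figure D4:**
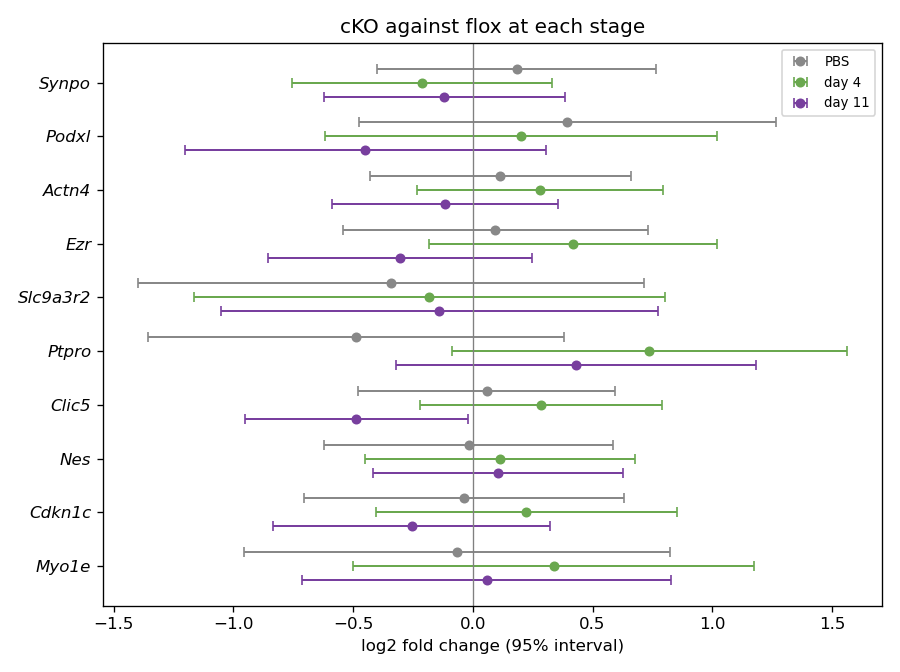
Log2 fold change of cKO against flox for each of the 10 genes in PBS (grey), on day 4 (green) and on day 11 (purple), with 95% intervals from the edgeR fit. The intervals include 0 except that of Clic5 on day 11, which ends at -0.02.

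The other genes of the foot process were taken as a list of 38 partners of actin, small GTPases and adhesion. Of these, 29 had a log2 fold change above 0 on day 4 against PBS (median 0.26; all genes 0.01) and 25 on day 11 (median 0.21; all genes 0.07), and edgeR called 0 at either stage. The smallest p on day 4 belonged to Dag1, dystroglycan, which links the podocyte base to the basement membrane, at 0.88 ± 0.22 (SE; edgeR adjusted p = 0.21). On day 11 it belonged to Actn1, the other non-muscle alpha-actinin, at 1.32 ± 0.30 (edgeR adjusted p = 0.068), with 172 ± 112 CPM (SD, n = 3) in flox PBS, 125 ± 33.9 CPM (SD, n = 3) in cKO PBS, 385 ± 79.1 CPM (SD, n = 4) in flox day 11 and 347 ± 149 CPM (SD, n = 4) in cKO day 11. Both alpha-actinin genes, Actn1 and Actn4, had values above 0 on day 11. The 20 other podocyte genes lay on the other side, as Synpo did. Averaged over genotypes, 16 of 20 were below 0 on day 4 (median -0.38) and on day 11 (median -0.62). One of them was called lower by edgeR, Thsd7a, a podocyte membrane protein, at -1.34 ± 0.21 on day 4 (adjusted p = 0.0033) and -1.80 ± 0.20 on day 11 (adjusted p = 6.9e-06). Within genotypes on day 11, 13 of 20 were below 0 in flox (median -0.16) and 16 of 20 in cKO (median -0.82).

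The summed level of markers of other glomerular cells was 1602 to 2328 CPM in PBS and 1835 to 3186 CPM on day 11 for 12 mesangial genes, and 345 to 568 CPM and 520.1 to 1068 CPM for 11 parietal epithelial genes. For 14 endothelial genes it was 5436 to 8002 CPM in PBS and 3793 to 6649 CPM on day 11, with 0 called. Of these 14 genes, 7 were above 0 and 7 below at both stages (median -0.05 on day 4 and -0.0006 on day 11). Ehd3, an endocytic trafficking protein, had the smallest p of that list, at -0.58 ± 0.18 (SE; edgeR adjusted p = 0.38) on day 4 and -0.55 ± 0.17 (adjusted p = 0.34) on day 11. All 5 erythrocyte genes were below 0 at both stages (0 called; median -1.70 on day 11), and their sum was 2013 to 18285 CPM in PBS, 2120 to 5815 CPM on day 4 and 482 to 15671 CPM on day 11. Among them Hba-a2, an alpha globin, had the smallest p on day 4 (-1.52 ± 0.67, edgeR adjusted p = 0.50) and Hbb-bs, a beta globin, on day 11 (-1.86 ± 0.64, adjusted p = 0.34), and globin copies can share reads. Of the mesangial, parietal and endothelial genes 2 were called higher by edgeR on day 11 against PBS: Acta2, smooth muscle actin, at 1.39 ± 0.28 (SE; adjusted p = 0.029) and Akap12, a scaffold listed as a parietal marker, at 1.27 ± 0.27 (adjusted p = 0.035). They also had the smallest p of their lists on day 4, at 1.24 ± 0.29 (edgeR adjusted p = 0.18) and 0.72 ± 0.27 (adjusted p = 0.39). Most mesangial genes lay on the side opposite to Acta2: 7 of 12 were below 0 on day 11 (median -0.21) and 8 on day 4 (median -0.19). Of the 11 parietal genes, 9 were above 0 on day 11 and 8 on day 4. For 17 macrophage genes the sum was 268 to 504 CPM in PBS and 213 to 666 CPM on day 11, and 2 of the 17, Itgam and Ms4a7, had 0 reads in every PBS library. Members such as Actn4, Ezr, Myo1e and Nes are also made outside podocytes, and the part of these cell types in the members' values was not tested. Beside Nes, 6 of 6 other intermediate filament genes were above 0 on day 11 averaged over genotypes (52.9% of all genes, 0 called). They were led by Vim, vimentin, at 1.52 ± 0.40 (edgeR adjusted p = 0.22). On day 4, 4 of the 6 were above 0 and Vim was at 0.61 ± 0.39 (edgeR adjusted p = 0.75). Within genotypes on day 11, 6 of 6 were above 0 in cKO and 4 of 6 in flox. Only 3 of the 6 had reads in all 21 libraries. Beside Cdkn1c, the summed level of 12 cell cycle genes was 19.7 to 241 CPM in PBS and 276.5 to 792 CPM on day 11, with 0 called. Of these 12, only 1 had reads in all 21 libraries, and 5 had a group without reads. For 6 other inhibitors of cyclin-dependent kinases the sum was 53.9 to 187 CPM in PBS and 204.1 to 359 CPM on day 11, with 0 called. Only 1 of these 6 had reads in all 21 libraries.

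**Figure D5:**
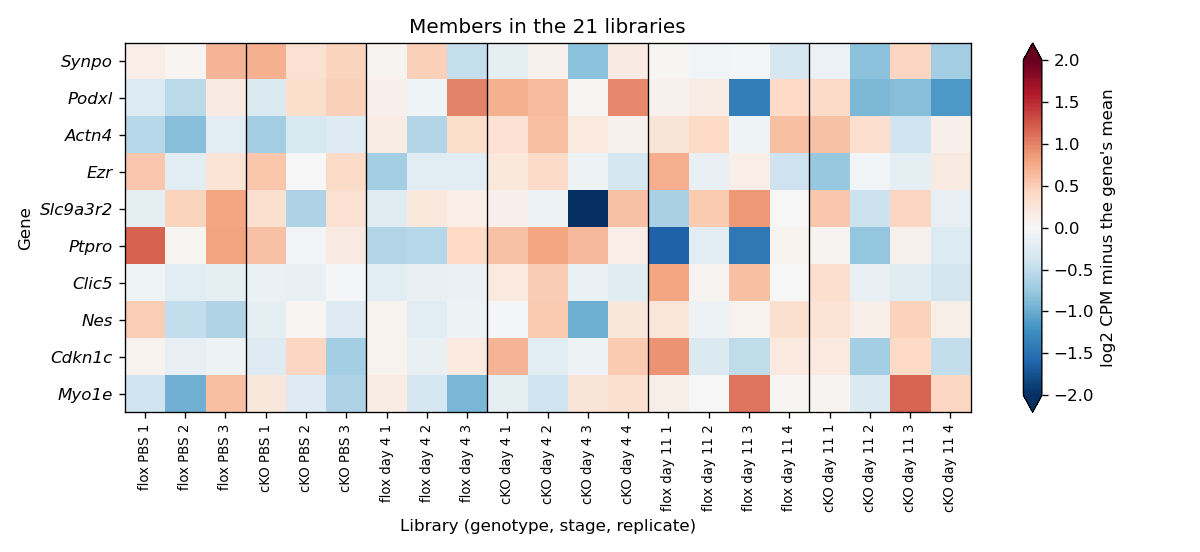
Log2 CPM of the 10 genes in the 21 libraries, each gene centred on its own mean, with libraries grouped by genotype and stage between the vertical lines (red above, blue below the mean; the scale stops at 2 either way). Rows for Actn4 and Synpo run in opposite directions between PBS and day 11, and single dark cells mark Slc9a3r2 in cKO day 4 replicate 3 and Ptpro in flox day 11 replicates 1 and 3.

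The profiles of the members over the 21 libraries were compared after each had been centred and divided by its own SD, with the mean absolute difference as the measure, over the 3528 genes whose mean log2 CPM reached 5. The 2 members most alike were Podxl and Cdkn1c, at 0.729 SD units, and the least alike were Synpo and Actn4, at 1.55. The genes nearest to Actn4 were Dag1 (0.505), Tpt1 (0.51) and Actg1 (0.526), which encode dystroglycan, a translationally controlled tumour protein and gamma-actin. Those nearest to Synpo were Pard3b (0.478), Creb3l2 and Arhgef12, and those nearest to Podxl were Myo1d (0.325), Tmem109 and Cd81. Ptpro was nearest to Nenf (0.501), Angptl2 and Bnip3l, Myo1e to Msn (0.551), Ptpn1 and Rarg, and Ezr to Oaz2 (0.474), Cpeb4 and Hoxd8. Clic5 was nearest to Aamp (0.644), Sdc4 and Dlc1, Nes to Ablim1 (0.431), Atg101 and Psma3, and Slc9a3r2 to Bcl2l1 (0.34), Eif4a3 and Safb2. For Cdkn1c, 2 of the 3 nearest were Sgms1 (0.654) and Hoxd4. The median difference to all genes was between 0.962 and 1.1 SD units for each member.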

How the data were processed

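Glomerular RNA from 21 mice was measured by 3' tag sequencing. Each library had its own table of estimated counts per gene, deposited without normalization according to its header. FastQC, fastp, DRAGEN, Picard and mm10 are named in the submitters' processing notes. Their versions, the annotation release, the strand setting and the handling of duplicates are not given in the sources used, so overlapping and antisense genes are uncertain. Identifiers of 35513 of 35598 genes matched GENCODE M21 (GRCm38), 738 of them only without the version, and 85 did not match. The estimated counts, rounded to whole numbers, entered edgeR 4.0.16 (R 4.3.3). Genes were kept by filterByExpr at a minimum count of 10, scaled by TMM and tested by the robust quasi-likelihood F test, in 1 model with 6 group means over 21 libraries and 15 residual degrees of freedom. The common biological coefficient of variation was 1.66. It is a single value over all tested genes and does not describe the spread of the members. The 13 comparisons were each adjusted by Benjamini-Hochberg over 13898 genes, and a gene was called at an adjusted p under 0.05. Standard errors were derived from each log2 fold change and its F statistic. CPM used TMM-scaled library sizes (4466359 to 24988494 reads), and log2 CPM a prior count of 2. The replicates are separate mice.

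The 10 members and the 12 other gene lists were chosen with earlier results of these data known. Named are all members, Rapgef3, from each other list up to 3 called genes with the smallest p or else the single gene of smallest p (stages against PBS, averaged over genotypes), and the 3 genes nearest in profile to each member. Some named genes of lists in which groups were without reads, and 1 neighbour of Cdkn1c, are not reported here. Alternatives were DESeq2 1.42.0, limma voom 3.58.1 with quality weights, median-ratio size factors, no low-count filter, a minimum mean log2 CPM of 6, a replicate block, the compared groups alone, removal of the ribosomal RNA gene, covariates for proximal tubule and for other podocyte genes, fits that each leave out 1 library, and a fit without cKO day 4 replicate 3 and cKO day 11 replicate 3. On simulated counts, with changed genes drawn at random from all tested genes, calls of changed genes had the right sign and most changed genes were not called. Unchanged genes reached an unadjusted p under 0.05 more often than nominal. These statements cover all tested genes together, and the outcome for genes at higher levels, such as the members, is not reported here. They therefore do not tell how often changed members would be called. Plots used matplotlib 3.10.9 (Python 3.11.15).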

Additional observations from a re-analysis of the deposited data

Results flagged for a closer look

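In groups of 4 libraries the gap of the highest or lowest library to its nearest neighbour was divided by the range of the group, and a ratio above Dixon's critical value at the 95% level marked a library that stands apart. Of 30 groups of member values tested, 2 were marked, and chance marks about 1 in 20. Podxl stood at 2039.8 CPM in cKO day 11 replicate 1 and between 704 and 866 CPM in the other 3 libraries of that group (ratio 0.879). Myo1e stood at 486.8 CPM in flox day 11 replicate 3 and between 231 and 249 CPM in the other 3 (ratio 0.929). That flox library also held the lowest Podxl level of its group, 599 CPM.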

How the results depend on the processing

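Of 850 member values recomputed under 10 other settings, 820 kept their direction and side of the threshold, 21 turned and 9 became called; of 1870 with libraries left out, 1800 kept both, 68 turned and 2 became called. Of the 85 member values, 60 turned or moved by over 1.5 times when libraries were left out. Members called (0 by edgeR) were 2 on day 11, 1 on day 4, 1 from day 4 to day 11, 2 in flox on day 11 and 1 in cKO on day 4 with DESeq2. On day 11 Actn4 was the 1 member called with no low-count filter (adjusted p = 0.017) and at a minimum mean log2 CPM of 6 (adjusted p = 0.038), and leaving libraries out gave 0 to 1. DESeq2 called 495 to 1256 genes per comparison, voom 3 to 103 and edgeR 0 to 17. Among the values that turned, with the podocyte covariate Slc9a3r2 was 0.099 on day 4, 0.54 on day 11, 0.42 in cKO day 4 and 0.21 in flox day 11, Synpo and Cdkn1c between genotypes 0.066 and 0.12, and Clic5 in flox day 4 0.019. With the proximal tubule covariate, Slc9a3r2 and Nes from day 4 to day 11 were -0.020 and -0.058, Slc9a3r2 and Cdkn1c in cKO day 11 -0.16 and -0.043, and Myo1e in flox day 4 0.086. With voom, Ezr from day 4 to day 11 was -0.017, Clic5 and Cdkn1c between genotypes 0.062 and 0.056, and Slc9a3r2 in cKO day 4 0.13. Clic5 in flox day 4 was 0.0022 at the minimum of 6, Nes there -0.029 with DESeq2 and with its size factors, and Myo1e on day 4 -0.010 in the compared groups alone. The replicate numbers are shared only as numbers: same-numbered libraries had correlations of -0.0843 to 0.0629 over 3530 genes (48 pairs, 0 above 0.1), and the highest correlation between groups, 0.107, was between different numbers. A replicate block turned Cdkn1c in cKO day 11 to -0.025 and called 10 genes on day 11 against 17, with 0 members called. The causes were not tested.

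With libraries left out, log2 fold changes that turned ran as follows. On day 4: Nes -0.0012 to 0.32 and Myo1e -0.16 to 0.28. On day 11: Slc9a3r2 -0.14 to 0.11 and Cdkn1c -0.047 to 0.31. From day 4 to day 11: Synpo -0.35 to 0.0088 and Actn4 -0.021 to 0.20. Between genotypes: Synpo -0.15 to 0.027, Podxl -0.12 to 0.19, Clic5 -0.11 to 0.0033, Nes -0.0017 to 0.21, Cdkn1c -0.15 to 0.094 and Myo1e -0.034 to 0.29. In flox day 4: Clic5 -0.044 to 0.010, Nes -0.16 to 0.45 and Myo1e -0.52 to 0.34. In cKO day 4: Slc9a3r2 -0.54 to 0.16 and Nes -0.040 to 0.39. In flox day 11: Podxl -0.049 to 0.41, Ezr -0.36 to 0.077, Slc9a3r2 -0.37 to 0.13 and Cdkn1c -0.11 to 0.42. In cKO day 11: Slc9a3r2 -0.16 to 0.24, Clic5 -0.15 to 0.11 and Cdkn1c -0.21 to 0.38. The fewest reads of a member in any library were 907, for Slc9a3r2 in cKO day 4 replicate 3. The fewest genes were detected in that library.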
